A study of Mus musculus with 5 samples.

Results

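NEUROD2 binding was examined at regions whose midpoint lay in the 3' untranslated part of an exon, the stretch of a transcript that follows the stop codon and is copied into mRNA but not translated. Peaks of 3 NEUROD2 antibodies that shared at least 1 bp were merged, and a region was kept where at least 2 of the antibodies had a peak. Of 32261 such regions on the mouse autosomes and sex chromosomes, 302 (0.936%) had their midpoint in a 3' UTR exon of the longest-span transcript of a protein-coding gene. Their midpoints lay in 3' UTRs of 296 genes. At 4 of the regions the 3' UTRs of 2 or more genes overlapped, and the gene named for such a region is 1 of them.

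The chromatin came from the cerebral cortex of BALB/c mouse embryos at embryonic day 14.5, with no genetic change or treatment, and each immunoprecipitation pooled the cortices of several litters. Antibody ab1 is a mouse antibody, while ab2 and ab3 come from rabbit. Each antibody gave 1 library of the same condition, and 2 libraries made with GFP antibodies served as controls for the peak caller, the mouse one for ab1 and the rabbit one for both ab2 and ab3. No antibody has a biological replicate, so the spread given over antibodies describes 3 antibodies and not 3 groups of animals, and whole cortex does not tell which cells carried the binding. The depth of the libraries cannot be read from peak lists and was not used here.

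NEUROD2 is a basic helix-loop-helix transcription factor of postmitotic excitatory neurons. It binds DNA together with E proteins at E-boxes, short sites of the form CANNTG whose middle pair of bases differs between factors. A 3' UTR acts as RNA in controlling the stability, transport and translation of a message, whereas a ChIP peak over it reports protein on the DNA. DNA downstream of a coding sequence can hold enhancers just as introns and intergenic DNA can.

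The motif searched here was an extended E-box of 7 bases, which reads CA, then G or T, then A or C, then TG, then G or T, on either strand. The sites below are those closest to the midpoint in the 10 strongest regions that hold the motif within the central 200 bp, with 10 bases on each side. They are shown because they are the sequences on which the E-box counts rest. Each is the mm10 reference (C57BL/6J) read 5′ to 3′ on the strand of the gene, so variants of BALB/c mice were not seen, and the capitals mark the extended E-box.

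Gadd45gip1 (chr8:84834882-84834908, plus strand): gactcacaaaCAGCTGTgagaagctcc
Triqk (chr4:12981107-12981133, plus strand): tcaaagagtcACATATGtccctaaagt
Stx6 (chr1:155205364-155205390, plus strand): ctggaccctcACAGCTGggaggggcct
B4galt5 (chr2:167299685-167299711, minus strand): ggttctgaggACAGATGatccccacag
Rab3a (chr8:70758323-70758349, plus strand): gaagaggggaCCAGATGtcactctgca
Senp7 (chr16:56188419-56188445, plus strand): cgcttaccagCATCTGTgtcagcttac
Ogfod1 (chr8:94066617-94066643, plus strand): tatgggtgagACAGATGgtgtatgaca
Rabac1 (chr7:24969922-24969948, minus strand): cgaggagctgCAGATGGaacctgtgta
B3gat2 (chr1:23846428-23846454, plus strand): cttacttccaCAGCTGTgtgctcagcg
Slc26a9 (chr1:131770834-131770860, plus strand): ttcattatgcCATCTGGctgccaatgg

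All but the Rabac1 site lay in the 3' UTR itself. The Rabac1 site lay in the coding part of a later exon, since the midpoint of that region was 52 bp past the stop codon. The cores around which these motifs are built are CAGCTG in Gadd45gip1, Stx6 and B3gat2, CATATG in Triqk, and CAGATG, read on one strand or the other, in the remaining 6.

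Every one of the 302 regions held peaks of both ab1 and ab2, as did nearly all regions (99.95% with an ab1 peak and 99.89% with an ab2 peak). In 227 of them these were the only antibodies, and 75 (24.8%, 95% Wilson interval 20.3 to 30.0) also held a peak of ab3. Among all regions, 22.2% held peaks of all 3 antibodies, and the difference of the 3' UTR regions from intronic regions was 1.72 percentage points (95% Newcombe interval -2.87 to 6.93). None of the 302 was called by ab3 with only 1 of the other antibodies. With 1 antibody left out and both others required, there were 78 regions in 3' UTR exons without ab1, 74 without ab2 and 302 without ab3. All intervals cover counting error only.

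The score of a peak is 10 times the −log10 of the p-value from the peak caller and was not scaled between libraries, so scores are compared within an antibody. The highest peak in a 3' UTR region had a median score of 284.6 for ab1 and of 152.7 for ab2 over 302 regions, and of 91.1 for ab3 over 75 regions. In introns the medians were 285.7, 143.1 and 91.2. Across regions, log10 scores of ab1 and ab2 gave a Pearson's r of 0.883 and a Spearman's rho of 0.859 (n = 302), as a description of peaks that share their DNA sequence.

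The sum of the 3 unscaled scores is used only to order the regions. The highest sum lay at Gadd45gip1, which codes for a protein of the mitochondrial ribosome (chr8:84833834-84836136, 2303 bp). It scored 3100 with ab1, 3100 with ab2 and 650.82 with ab3. A score of exactly 3100 was shared by 661 peaks of ab1 and 62 of ab2, so the order among the strongest regions is not resolved. The midpoint lay 559 bp past the Gadd45gip1 stop codon. Gadd45gip1 was the only member at 3100 with both antibodies, and its ab3 score was the highest of the 75.

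Disp3, a membrane protein of the Dispatched family, followed with scores of 3100, 2634.23 and 530.78 for ab1, ab2 and ab3 (chr4:148239230-148241582). The midpoint of this region lay 85.7% of the way along the 3' UTR, and the region passed the end of the transcript. Stx6, a SNARE protein of the trans-Golgi network, scored 3100, 1965.56 and 146.93 (chr1:155203822-155206828), and its region was 3007 bp long. Its ab3 score was the lowest of ab3 among the 10 highest regions.

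Triqk, which codes for a small membrane protein of the endoplasmic reticulum, held 2 of the 15 strongest regions in 1 3' UTR of 3035 bp. The first (chr4:12980626-12981521) scored 3100, 1985.57 and 342.73, with its midpoint 556 bp past the stop codon. The second (chr4:12981709-12982762) scored 3100, 1439.15 and 370.58, with its midpoint 1718 bp past it. The order of the 2 regions was thus opposite for ab2 and for ab3.

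Synrg, an adaptor-associated protein, scored 2984.45, 1640.94 and 319.46. Rab3a, the small GTPase of synaptic vesicles, scored 2872.06, 1605.15 and 277.92, and its region of 2721 bp reached past both ends of a 3' UTR of 589 bp. Rabac1, a prenylated Rab acceptor, scored 1971.28, 1207.91 and 121.82. Its midpoint was 206 bp from the annotated start of a microRNA gene, Mir7046.

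The sugar transferases B4galt5 and B3gat2 scored 3082.8, 1483.09 and 238.02, and 2033.45, 1137 and 113.75. The B3gat2 midpoint is annotated as coding in another transcript, and it also lay inside an antisense gene. Phf24, a PHD finger gene, scored 2358.24, 1993.85 and 293.91, and held no other region. Senp7, a SUMO protease, scored 2415.54, 1287.02 and 271.13 with its midpoint 14 bp past the stop codon. The remaining strong members were Fbxl18, an F-box protein (2307.96, 1162.22 and 111.92), Fgf1, a fibroblast growth factor (1976.27, 1230.51 and 201.39), and Ogfod1, a prolyl hydroxylase (1936.36, 1289.46 and 122.95). The Fgf1 midpoint lay in a 3' UTR of a transcript of the nonsense-mediated decay type and inside an antisense gene. All 15 strongest regions held peaks of all 3 antibodies.

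**Figure D1:**
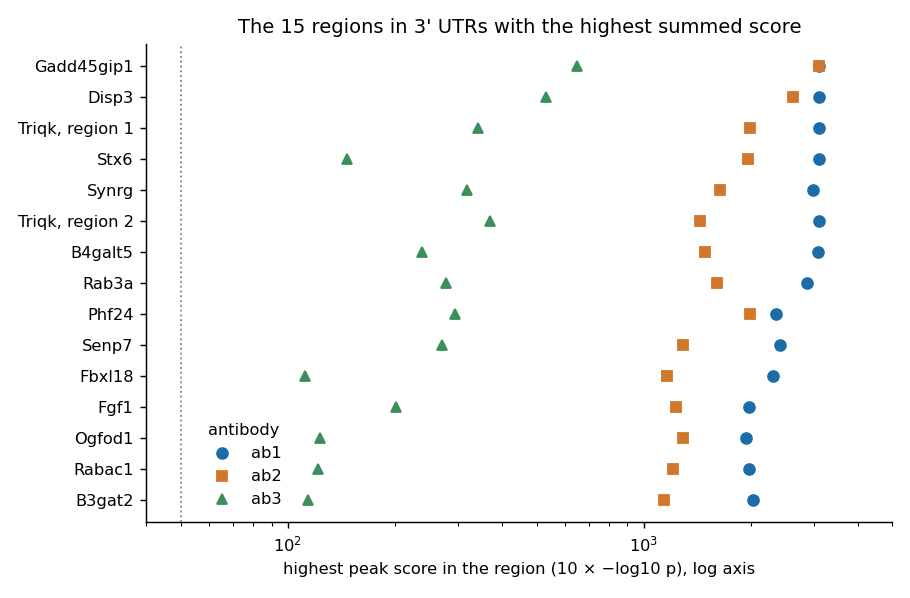
Highest peak score of each antibody (log axis, 10 × −log10 p) in the 15 regions in 3' UTRs with the highest summed score, 1 row per region, with a dotted line at the lowest score of 50. The points of ab1 run from 1936.36 to 3100, those of ab2 from 1137 to 3100 and those of ab3 from 111.92 to 650.82, on scales that differ between the libraries.

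The members with the lowest summed scores, from 115.31 to 117.37, were at Sept3 (59.19 for ab1 and 58.18 for ab2), Mtf1 (54.15 and 61.65) and Ext1 (55.25 and 60.06). None of these had a peak of ab3. Single peaks came closer to the limit of 50, down to 50.11 for ab1 and 50.08 for ab2. Sept3 codes for a neuronal septin, Mtf1 for a metal-responsive transcription factor and Ext1 for an enzyme of heparan sulfate synthesis. The 3 genes held 2 or 3 other regions each, and a region at their own promoter.

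There were 10 genes with 2 or more regions in the 3' UTR, each with exactly 2. The gap between the stronger and the weaker of a pair was wide in several. In Slc4a3, an anion exchanger, the stronger region scored 1291.33 with ab1 and 673.1 with ab2, and the weaker 85.97 and 57.35. In Lrtm1, a leucine-rich repeat membrane protein, the corresponding scores were 847.91 and 671.81, and 62.93 and 72.53. In Cmtr1, an mRNA cap methyltransferase, they were 729.06 and 430.92, and 61.87 and 59.28. The weaker regions of these genes had no ab3 peak.

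Jak2, the cytokine receptor kinase, was the only gene other than Triqk with ab3 peaks in both of its regions. They scored 1696.35, 719.23 and 114.57, and 466.66, 189.51 and 65.11, for ab1, ab2 and ab3. Igf1r, the receptor for insulin-like growth factor, scored 900.14 and 384.35 with ab1 and ab2 in its stronger region and 241.36 and 152.34 in the other. Bace2, a relative of the beta-secretase, scored 1653.42 and 650.32, and 529.86 and 73.2. Lpp, a protein of cell adhesions, scored 1244.04 and 776.07, and 465.47 and 229.8, over a 3' UTR of 13257 bp. The other pairs were in BC004004 and in H13, a signal peptide peptidase.

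Median width was 885.5 bp in 3' UTRs, with a range from 358 to 5142 bp, and 858 bp in introns. A region was wholly inside a single 3' UTR exon in 169 of 302 cases, touched coding sequence in 83, and passed the end of the transcript in 67. The longest was at Islr2, a leucine-rich repeat membrane protein of growing axons, where 5142 bp covered a 3' UTR of 1440 bp. It scored 1313.36, 1153.18 and 76.35.

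Midpoints were found along the whole 3' UTR and, over all members together, were most frequent near the stop codon. When each 3' UTR was divided into 3 equal parts, the part nearest the stop codon held 125 midpoints (41.4%, 36.0 to 47.0), the middle part 93 (30.8%, 25.9 to 36.2) and the last part 84 (27.8%, 23.1 to 33.1). The median distance from the stop codon was 1030 bp, and 87 midpoints lay within 500 bp of it. Peaks of all 3 antibodies were found at 20.0% (13.9 to 27.9) of the regions of the first part and at 31.0% (22.1 to 41.5) of the last, and these intervals overlap. The E-box share was 64.8%, 66.7% and 64.3% in the 3 parts.

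**Figure D2:**
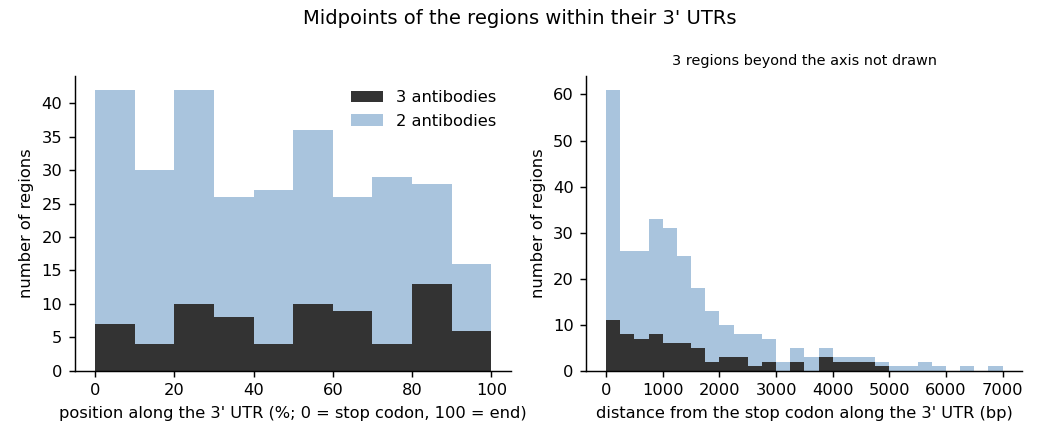
Number of regions by the position of the midpoint along the 3' UTR (left, in percent of its length) and by its distance from the stop codon (right, in bp), with regions of 3 antibodies in dark and of 2 antibodies in light. Regions lie along the whole 3' UTR. Over regions of 2 and 3 antibodies together, 125 midpoints lie in the part nearest the stop codon and 84 in the last part. The 3 regions over 7000 bp from the stop codon are not drawn.

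The extended E-box occurred at the centre of most members, with 197 of 302 holding one in the central 200 bp (65.2%, 59.7 to 70.4), against 59.6% of all regions. In windows of the same size that began 1000 bp beyond the ends of each region, 22.2% held the motif, a ratio of 2.94. With 1 flank per region, 151 regions had the motif only at the centre and 21 only in the flank. The study found this motif in the peaks of these same libraries, so its excess at the centre is given as a description, with no test. The GC content of the central windows was also higher, with a median of 53% against 48% in the flanks, and its part in the motif count was not tested.

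The same contrast stood against 3' UTR sequence itself. Of 130409 windows of 200 bp tiled over all 3' UTRs, 21.2% (21.0 to 21.4) held the motif. Of 2954 windows elsewhere in the 3' UTRs of the bound genes, 21.5% (20.1 to 23.0) did. Over the whole length of the regions rather than the central window, 286 of 302 (94.7%, 91.6 to 96.7) held at least 1 extended E-box, with a median of 2 per region, beside 91.7% of intronic regions, also with a median of 2.

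Each antibody was also taken alone. With ab1, 471 peaks were centered in a 3' UTR exon and 66.9% (62.5 to 71.0) held the motif. The values were 64.2% (58.8 to 69.2) of 321 peaks with ab2 and 73.0% (61.9 to 81.8) of 74 peaks with ab3. The mean over the antibodies was 68.0% ± 4.51 (SD, n = 3), against 22.0% ± 1.27 in the flanks, and the centre exceeded the flanks with 3 of 3 antibodies.

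**Figure D3:**
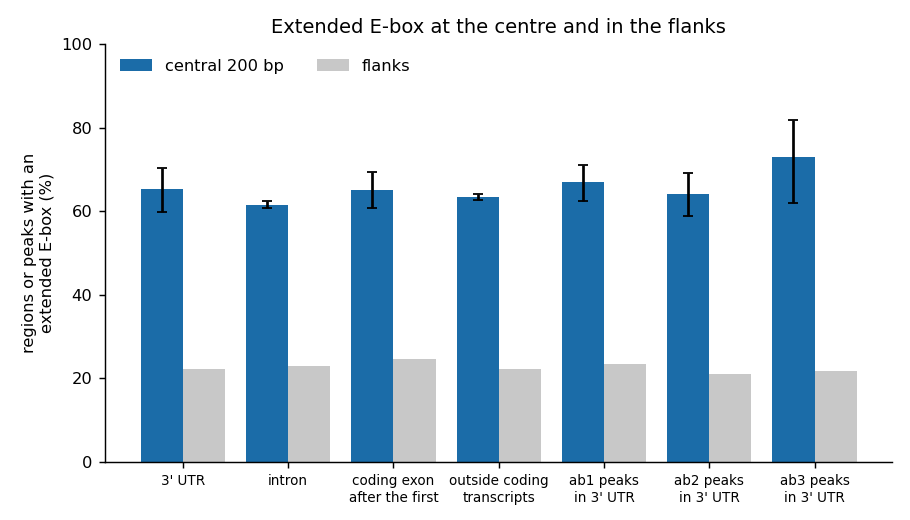
Percent of regions (first 4 pairs) or of single-antibody peaks (last 3 pairs) with an extended E-box in the central 200 bp (blue, with 95% Wilson intervals) and in the flanking windows (grey, no interval drawn). The share at the centre lies between 61.5% and 73.0% in all 7 pairs, and that of the flanks between 21.0% and 24.5%.

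The differences in this share from introns and from coding exons after the first had intervals that included 0. It was 61.5% of 14400 intronic regions, a difference of 3.70 points (-1.88 to 8.91), which was -7.34 points (-18.5 to 3.23) when ab1 was left out and 7.53 points (2.09 to 12.5) when windows were centered on the highest peak. It was 65.1% of 459 regions in coding exons after the first, a difference of 0.090 points (-6.87 to 6.91). With the peaks of ab1 alone the difference from introns was 4.68 points (0.260 to 8.82). Against all other regions together it was 5.64 points (0.085 to 10.8), and with regions within 1 kb of a TSS left out on both sides the shares were 66.8% and 65.6%. The loose form CANNTG was found in 90.1% of the 3' UTR regions and 85.9% of the intronic ones, a difference of 4.18 points (0.251 to 7.13).

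In bins of 50 bp, the motif was found in 24.8% (20.3 to 30.0) of the 3' UTR regions just upstream of the midpoint and in 24.5% (20.0 to 29.7) just downstream of it. The intronic values in these bins were 24.0% and 24.3%. Beyond 900 bp the values ranged from 5.63% to 8.61% in 3' UTRs and from 6.01% to 6.35% in introns.

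**Figure D4:**
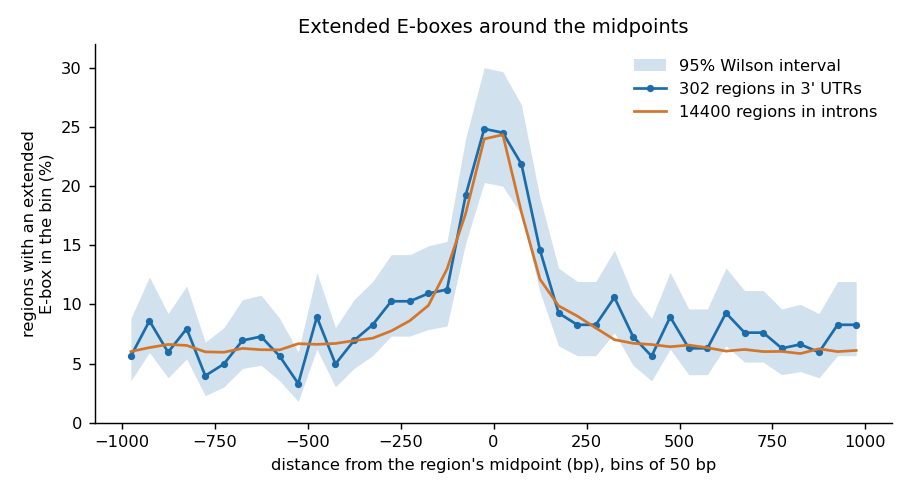
Percent of regions with an extended E-box in each 50-bp bin by distance from the midpoint (bp), for 302 regions in 3' UTRs (blue, with 95% Wilson intervals) and 14400 in introns (orange). Both curves peak at the midpoint, at 24.8% and 24.3%, and fall to between 5.63% and 8.61% in 3' UTRs beyond 900 bp.

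By core, CAGATG was the most frequent in the central windows of the 3' UTR regions, in 47.7% of them and at 2.88 times its share in the flanks. CAGCTG followed with 35.8% and 3.32 times. CATATG was in 7.28%, at 1.76 times its share in the flanks, which rests on 22 regions. In intronic regions the shares of the same 3 cores were 44.5%, 28.6% and 11.9%. The core CAATTG was in 3 regions, at 0.462 times its share in the flanks, and CACATG was at 1.04 times.

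The number of extended E-boxes in the central 200 bp was 1 in 114 regions, 2 in 62, 3 in 17 and 4 in 4. Those with 4 were at Il6ra, the interleukin-6 receptor, Ackr3, a scavenging chemokine receptor for Cxcl12, Cnr1, the cannabinoid receptor of axon terminals, and Stard4, a cholesterol carrier. Il6ra scored 710.76 with ab1 and 328.68 with ab2, Ackr3 726.5 and 282.71, and Cnr1 465.42 and 258.62. None of these 3 had an ab3 peak. Stard4 was named after its count had been seen, as the fourth member that tied.

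The share with a central motif was also compared along the score. When the members were ordered by summed score and divided into 4 groups, the share with a central motif was 68.4% (57.3 to 77.8) in the highest group and 68.0% (56.8 to 77.5) in the lowest, with 57.9% and 66.7% in between. The highest regions were wider, with a median of 1043.5 bp against 705 bp in the lowest group. Of the 15 strongest regions, 9 held the motif in the central 200 bp and all 15 held it somewhere in the region, with a median of 6 extended E-boxes.

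Against the amount of sequence, 3' UTRs held fewer regions than introns. There were 10.8 regions per Mb of 3' UTR exon, 15.1 per Mb of intron, 17.4 per Mb of coding exon after the first and 8.70 per Mb outside these transcripts. The ratio of 3' UTR to intron was 0.715 (exact 95% interval 0.636 to 0.801). It was 0.696 for the peaks of ab1, 0.691 for ab2 and 0.731 for ab3, a mean of 0.706 ± 0.022 (SD, n = 3), and below 1 with 3 of 3 antibodies. The ratio to coding exons after the first was 0.617 (0.532 to 0.715), and that to sequence outside protein-coding transcripts was 1.24 (1.101 to 1.387).

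A bound 3' UTR was uncommon for a gene. Of 20117 protein-coding genes with a 3' UTR, 296 (1.47%) held a region in it. The share was 0.225% (0.118 to 0.427) of 4000 genes with a 3' UTR of up to 250 bp and 5.54% (4.42 to 6.93) of 1281 genes with one of over 4000 bp. The number of regions per Mb was 10.1 in the longest group and 16.5 in the shortest, where it rests on 9 regions, and it lay between 7.51 and 11.2 in the others. The median 3' UTR of the bound genes was 2573.5 bp, against 885 bp for all genes, so the gene counts below move with 3' UTR length.

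**Figure D5:**
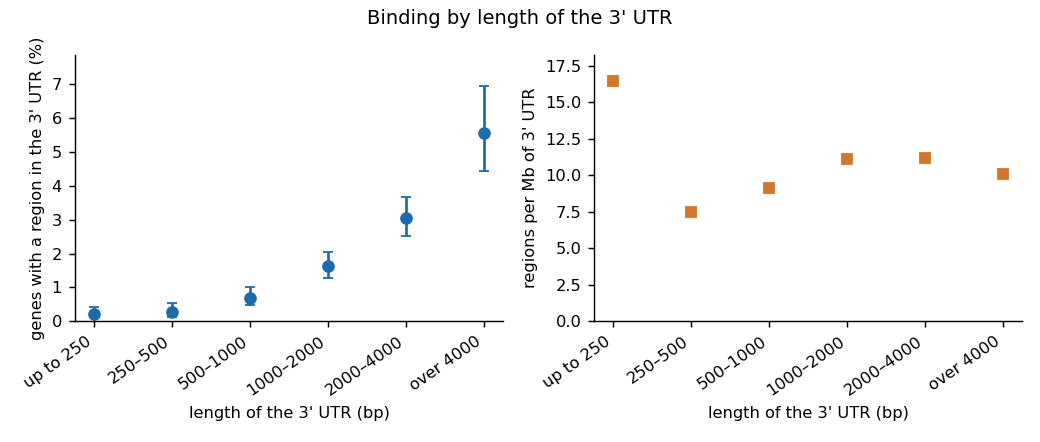
Percent of protein-coding genes with a NEUROD2 region in the 3' UTR (left, with 95% Wilson intervals) and regions per Mb of 3' UTR (right, no interval drawn), in 6 groups of genes by length of the 3' UTR in bp. The share of genes rises from 0.225% to 5.54%, while the density lies between 7.51 and 16.5 regions per Mb with no steady rise.

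Other regions in the same genes were also counted. Another region lay in the same gene at 202 of the 302 members and none did at 100. Of the 292 genes named for the members, 64.7% held a region outside their own 3' UTR, against 32.3% of the other genes, a difference of 32.4 points (26.8 to 37.7). Within groups of similar gene span, a comparison added after seeing the data, the difference was 17.1 points (5.73 to 31.8) up to 10000 bp, 23.4 (13.1 to 33.8) up to 30000 bp, 26.4 (16.3 to 34.7) up to 100000 bp and 16.5 (8.83 to 19.7) above. At the promoter, 116 of the 292 genes (39.7%, 34.3 to 45.4) had a region within 1 kb of their own transcription start site (TSS), against 21.6% of all protein-coding genes with a 3' UTR, a difference of 18.1 points (12.6 to 23.8). Among genes of similar 3' UTR length the difference was 9.94 points (-5.99 to 42.5) up to 250 bp and 18.2 (-5.70 to 50.1) between 250 and 500 bp, where 9 and 8 bound genes entered. It was 21.3 points (4.49 to 40.1) between 500 and 1000 bp, 12.4 points (2.07 to 24.1) between 1000 and 2000 bp, 11.1 (2.31 to 20.6) between 2000 and 4000 bp and 14.7 (3.22 to 26.4) above 4000 bp. The bound genes also spanned more DNA, with a median of 36292.5 bp against 18245 bp, and the part of gene span in the promoter difference was not tested. Of the 15 strongest regions, 10 lay in genes with a region at their own promoter, among them Gadd45gip1, Disp3, Triqk, Stx6 and Rab3a.

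Few of the regions lay at a start site. The midpoint was within 1 kb of the TSS of any gene in 16 of 302 (5.30%, 3.29 to 8.43), against 15.7% of all regions and 8.58% of intronic regions. This difference from introns was -3.28 points (-5.34 to -0.113). When ab2 was left out, the share of the 3' UTR regions was 2.70%. Counting the TSS of any annotated transcript, a definition added after seeing the data, the share was 25 of 302 (8.28%), against 15.8% of intronic regions, a difference of -7.53 points (-10.2 to -3.83). In the main count, the start site was that of another protein-coding gene in 9 of the 16, of a gene of another type in 5, and of the own gene in 2. The median GC content of these 16 central windows was 65%, against 52.5% in the other 286. An extended E-box was present in 37.5% of the 16 and 66.8% of the 286, a difference of 29.3 points (4.76 to 49.0). Among all regions the shares were 27.2% within 1 kb of a TSS and 65.7% beyond it, so the lower share near start sites was not particular to 3' UTRs.

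Examples of such shared DNA were chosen after their values had been seen. The region in the 3' UTR of Gng3, a neuronal G protein subunit, was 63 bp from the start of Bscl2 and scored 79.19 with ab1 and 68.01 with ab2. The region in Rfxank was 281 bp from the start of Nr2c2ap and scored 66.8 and 129.7. The Gm49380 region was 159 bp from the start of Usp2, a ubiquitin protease, and scored 711.75 and 324.3. Whether such a region belongs to the 3' UTR or to the neighboring start cannot be told apart.

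The annotation also overlapped elsewhere. The midpoint lay inside another gene of any type at 44 members, an antisense gene at 35 of them, and it was coding in another transcript at 13. The longest-span transcript was of the nonsense-mediated decay type at 15, where the annotated 3' UTR can cover exons that are coding in the main transcript. The 4 members in overlapping 3' UTRs are not counted among the 44. Without the 48 members that lay inside another gene in this sense or were coding in another transcript, the count was 254 and 1.97% of them lay within 1 kb of a TSS, as an alternative chosen after seeing the data.

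For the gene groups, 6 lists of genes of cortical development were counted. Of the 359 listed genes with a 3' UTR, 14 (3.90%) held a region in it, beside 1.47% of all genes. The lists are described by their counts only, and their 3' UTRs were long, with medians from 1409 to 2618 bp.

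Among cortical transcription factors 4 of 56 genes had a region in the 3' UTR. Mef2c, an activity-regulated factor, scored 817.69 with ab1 and 286.06 with ab2. Tshz2, a zinc finger factor, scored 493.48 and 280.55, Sox11, a factor of young neurons, 291.49 and 199.03, and Nfib, a nuclear factor I protein, 282.87 and 206.12. None of the 4 had an ab3 peak. The Nfib gene held 25 other regions, Tshz2 14, Mef2c 7 and Sox11 1.

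Among axon guidance and adhesion genes there were 6 of 76. Efnb1, a transmembrane ephrin, scored 835.81, 353.13 and 54.5 with the 3 antibodies, and Sema5b, a semaphorin, scored 673.27, 473.44 and 51.26. Without an ab3 peak, Sema5a scored 1083.03 and 599.26, the ephrin receptor Ephb2 468.8 and 220.85, the protocadherin Pcdh17 473.47 and 135.12, and the ephrin ligand Efna5 202.23 and 119.94. Other regions in the gene numbered from 2 in Efna5 to 16 in Ephb2, and Pcdh17 had none.

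The other lists held few. Of RNA-binding proteins there were 2 of 56. They were Srrm4, a splicing regulator of neuronal microexons, with 817.84 and 346.81, and Celf2, a splicing and stability factor, with 74.13 and 71.61. Of synapse and channel genes there was 1 of 63, Grin2a, an NMDA receptor subunit, with 179.66 and 73.2. Of Notch and Wnt genes there was 1 of 49, Lrp6, a Wnt coreceptor, with 320.6 and 349.17. Of migration and cytoskeleton genes there was 0 of 59, which allows a share of up to 5.08% by the limit of 3 counts and 6.11% by the Wilson interval. None of the 4 named genes of these lists had an ab3 peak.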

How the data were processed

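The authors aligned reads to mm10 (Bowtie, run on Galaxy), discarded duplicated and multiply mapped reads, and ran MACS on each antibody by itself, with the GFP library from the matching host as control. The deposited peak lists give a score per peak, as the authors' peak caller wrote it (10 times −log10 p, lowest 50), and no reads. Files count positions from 0, and positions here count from 1. The depth of each library cannot be read from peak lists and was not used here, so precision is counting error alone.

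Here peaks were merged at 1 bp and midpoints placed on GENCODE M21, with 3' UTR given precedence over other classes of exon and intron. Shares have Wilson and differences Newcombe intervals (95%), and density ratios an exact conditional interval. An exact McNemar test of centre against flank was run but is not reported, since the study found the motif in these peaks. A permutation over 3 antibodies cannot go below p = 0.25 and was not run. Python 3.11.15, numpy 2.4.6, scipy 1.17.1, pysam 0.24.0, samtools 1.23.1 and matplotlib 3.10.9 were used, and the calculations were tested on simulated data.

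Genes were named by rule: the 15 highest and 3 lowest summed scores, 2 or more regions, list members, most E-boxes, and the 3 longest regions. Members, lists and rule were chosen with earlier results of these data known. Alternatives changed score, overlap, antibodies, position, transcript, motif, window, background and start sites.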

Additional observations from a re-analysis of the deposited data

Results flagged for a closer look

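Regions called by a single antibody are not among the 302, though their peaks enter the values given above for each antibody alone, and some of them lay in 3' UTR exons. The midpoint was in such an exon at 160 of the 18825 regions of ab1 alone, at 20 of the 2645 regions of ab2 alone and at 1 of the 102 regions of ab3 alone. Peak calling had already set these peaks against the GFP libraries. The median score of those in 3' UTRs was 75.7 for ab1, near the cutoff, and 55.7 for ab2. An extended E-box was present in the central 200 bp of 62.5% (54.8 to 69.6) of the 160 and of 75.0% (53.1 to 88.8) of the 20, beside 65.2% of the regions with at least 2 antibodies.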

How the results depend on the processing

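Of 75 values under alternative settings, 54 stayed within their criterion. The number of regions was 193 with peaks of score 100 or more and 75 with all 3 antibodies required. With score 100 or more, the share with all 3 antibodies was 17.1% and the centre-to-flank E-box ratio 3.21. That ratio was 3.60 in windows of 100 bp, 1.87 in windows of 400 bp and 1.34 for CANNTG. The E-box difference from introns had an interval above 0 at the centre of the highest peak (7.53 points, 2.09 to 12.5) and for CANNTG (4.18, 0.251 to 7.13). Its sign changed with all 3 antibodies, to -0.28 (-11.7 to 10.1). The density ratio to introns was 0.768 with all 3 antibodies and 0.740 without regions within 1 kb of a TSS. In the latter, only regions were left out, and the full length of 3' UTRs and introns stayed as denominator. The share within 1 kb of a TSS was 2.67% with all 3 antibodies and 1.97% without regions coding in another transcript or inside another gene, those in overlapping 3' UTRs of 2 genes kept, an alternative chosen after seeing the data. The cause of these changes was not tested.

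With each antibody left out in turn and both others required, the number of regions was 74 to 302, and 78 without ab1, 74 without ab2. The E-box ratio was 2.59 to 2.95, the density ratio 0.715 to 0.796 and the share near a TSS 2.70% to 5.30%. The E-box difference from introns was -7.34 without ab1 (-18.5 to 3.23), against 3.98 at most. No paired analysis was possible because the GFP libraries have no peak list here and entered only as controls of the peak caller, matched by host species and not by replicate number. Depth was not used, and its part in which regions were called was not tested.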
